A study of Homo sapiens with 9 samples.

Results

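Gene expression after 12 h of activation was compared with the non-activated state in Jurkat cells. The libraries were chosen by their labels, 3 of non-activated cells (0 h) and 3 of cells activated for 12 h, out of 9 mRNA libraries in the series. Every gene that passed a filter on low counts was taken, which left 12036 of the 19569 genes in the count table. The remaining 3 libraries, of cells activated for 5 h, entered the filter, the scaling and the estimate of the spread between replicates. They also served to ask how the 12 h state differed from the earlier one. Of 6145 genes called different at 12 h than at 0 h, 6099 had a value when only the libraries of these 2 groups were used. All libraries were from Jurkat Clone E6-1, 1 clone of a leukaemic human T-cell line. For activation, the plate carried bound anti-CD3 antibody (10 µg/mL) and the medium held soluble anti-CD28 antibody (5 µg/mL). The 0 h cells received neither antibody. No cells were kept without antibody for 12 h, so effects of the antibodies and of the hours in culture or handling cannot be told apart.

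Antibody against CD3 engages the T-cell receptor complex, and antibody against CD28 supplies the costimulatory signal that a naive T cell needs for full activation. The receptor signals through the kinases LCK and ZAP70 and through adaptor proteins to calcium, MAP kinases and NF-κB, which turn on cytokine, receptor and survival genes within hours. In primary T cells, growth, sterol synthesis and entry into the cell cycle follow over the next day. Jurkat cells divide without stimulation, so their resting state is not that of a quiescent T cell.

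Libraries of 1 group are labelled as biological replicates, without a statement that they came from separate cultures. The p-values therefore rest on the spread among the 9 libraries, which may be technical. Totals ran from 4222258 to 9359187 counts. The 12 h replicate 1 was the shallowest library and had the largest share of its counts in its 50 most abundant genes, 14.31% against 11.59% to 13.55% in the others. Without it, 3056 genes were called higher and 2960 lower at 12 h than at 0 h. The 12 T-cell markers summed to 5820 to 6631 CPM (counts per 1000000 counts, scaled by TMM) at 0 h and 5864 to 6629 CPM at 12 h. Myeloid markers summed to under 4 CPM in every library. The B-cell markers summed to 184 to 228 CPM at 0 h and 149 to 175 CPM at 12 h, nearly all of it from CD79A, with 161, 167 and 203 CPM at 0 h. The part of such cells or transcripts in the results was not tested. Because whole cultures were measured, fewer cells with a transcript and less of it per cell cannot be told apart.

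At 12 h, 51.1% of tested genes were called at an adjusted p under 0.05 (edgeR quasi-likelihood test, Benjamini-Hochberg over all tested genes). These were 3160 genes higher (26.3%) and 2985 lower (24.8%), with a median log2 fold change over all tested genes of 0.00. That median and the near-even split depend on the scaling, because TMM assumes that most genes do not change. With upper-quartile normalization, 2745 genes were higher and 3547 lower. CPM are relative levels, so a change in total mRNA per cell would not be seen. Most changes were small: the median log2 fold change was 0.59 among the genes called higher and -0.63 among those called lower, and 702 genes were higher and 738 lower by at least 2-fold. Without regard to the test, the 3 libraries at 12 h all lay above the 3 at 0 h for 28.2% of genes and all below for 28.0%. Against 5 h, 36.1% of genes were called at 12 h, 18.1% higher and 18.0% lower. The 2 comparisons share the 12 h libraries. Precision depended on abundance: the median standard error fell from 0.30 on the log2 scale in the least abundant 3009 genes (up to 12.2 CPM) to 0.09 in the most abundant 3009. The share called higher was 15.7% in the former and 39.2% in the latter, and the share called lower was 23.8% and 22.7%. In the paragraphs that follow, counts of list members called are to be read against 26.3% higher and 24.8% lower at 12 h against 0 h, and against 18.1% and 18.0% at 12 h against 5 h. Statements that 0 h and 12 h libraries do not overlap are to be read against 28.2% above and 28.0% below. For genes named for a large called change, such a statement adds no support. Log2 fold changes are 12 h minus 0 h with their standard error unless 5 h is named.

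**Figure D1:**
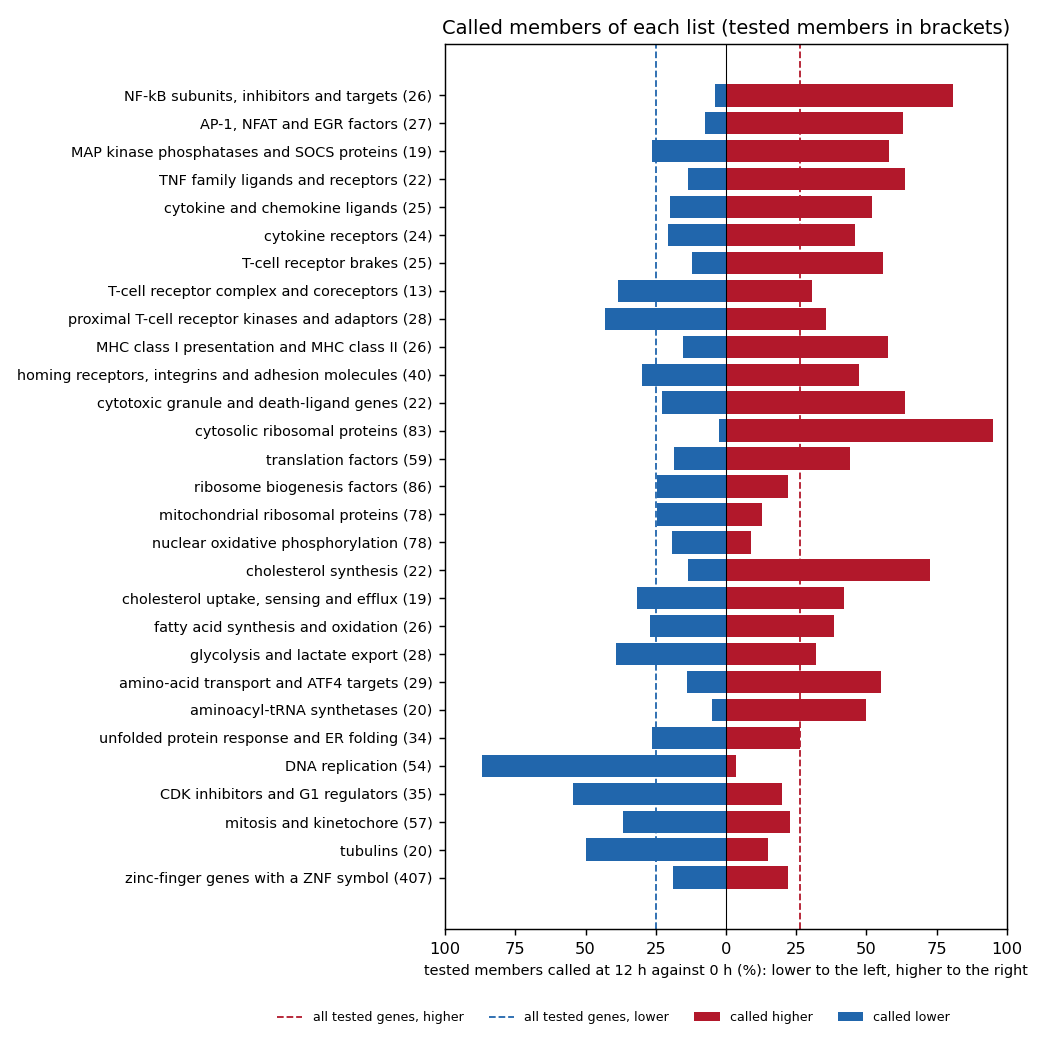
Share of the tested members of 29 gene lists called higher (red, to the right) or lower (blue, to the left) at 12 h than at 0 h, in percent, with the number of tested members in brackets and the shares over all tested genes as dashed lines. Cytosolic ribosomal proteins reached 95.2% higher and DNA replication genes 87.0% lower, against 26.3% and 24.8% of all tested genes.

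Of 13 tested genes of the receptor complex and coreceptors, 4 were higher and 5 lower. The 4 were CD5, CD6, CD28 and PTPRC, none of them a chain of the receptor complex. The genes of the alpha and beta receptor chains, TRAC, TRBC1 and TRBC2, were not in the count table and so were not tested. CD3G, the gamma chain of CD3, had 718, 717 and 798 CPM at 0 h and 364, 344 and 304 CPM at 12 h (log2 fold change -1.14 ± 0.10, edgeR adjusted p = 6.79e-09). The delta and epsilon chains did not pass the test: CD3D had 916, 1015 and 1225 CPM before and 926, 1153 and 924 after, and CD3E had 1041, 1102 and 1206 before and 989, 983 and 919.8 after (adjusted p = 0.623 and 0.0583). So the 3 CD3 chains did not share a pattern. CD7, a surface protein of early T-lineage cells, fell from 228, 264 and 319 CPM to 78.8, 108 and 77.0. CD5, a scavenger-receptor protein that dampens receptor signals, rose from 228, 226 and 262 CPM to 595, 736 and 554 (log2 1.40 ± 0.12, adjusted p = 9.14e-09). CD6, its relative, rose from 127, 149.8 and 183 to 322, 336 and 269.9 CPM, and CD28 from 526, 529 and 577 to 822, 756 and 679 CPM. CD4 was low throughout, with 9.42 to 10.4 CPM at 0 h, and fell to 1.63 to 2.94 CPM. In a limma test on the deposited log2 values, 3 members in place of 5 were called lower.

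Among the 28 kinases and adaptors that carry the receptor signal, 10 rose and 12 fell (median log2 -0.18). LCK, the kinase that phosphorylates the receptor tails, had 791, 719 and 767 CPM at 0 h and 743, 864 and 820.3 at 12 h. ZAP70, which binds those tails, had 359, 383 and 403 CPM and 308, 374 and 335 CPM, and neither gene passed the test. Members further downstream passed it. LCP2, which encodes the adaptor SLP-76 (chromosome 5, 170246237 to 170298227, GRCh38), rose from 213, 209 and 209.9 CPM to 861, 889 and 922 (log2 2.08 ± 0.08, adjusted p = 3.63e-14). The adaptor gene SH2D2A rose from 15.1, 11.5 and 13.5 CPM to 61.0, 77.1 and 72.4. In contrast, GRAP2, an adaptor that partners with SLP-76, fell from 158, 138 and 151 CPM to 60.3, 75.9 and 74.2. RASGRP1, the diacylglycerol-responsive activator of Ras, fell from 220.0, 215 and 205 CPM to 115, 99.9 and 118. TRAT1, a transmembrane adaptor that stabilises the receptor, fell from 68.6 ± 5.91 to 31.1 ± 2.23 CPM (SD, n = 3 each) and was lower at 12 h than at 5 h too (log2 -0.76, adjusted p = 5.17e-05). Both directions thus occurred within the same signalling layer. For each of these 5 genes the 0 h and 12 h libraries did not overlap, which adds no support because they were named for their large called changes.

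Brakes on the receptor rose more often than they fell, with 14 of 25 higher and 3 lower (median log2 0.27). CBLB, a ubiquitin ligase that restrains activation without costimulation, had 29.5, 26.6 and 23.8 CPM at 0 h and 85.2, 79.7 and 86.3 CPM at 12 h (log2 1.65 ± 0.11, adjusted p = 8.97e-11). DGKZ, which removes diacylglycerol, rose from 105, 106 and 123 to 135, 175 and 144 CPM. The inhibitory receptor gene PDCD1 was low, with 1.79 to 2.93 CPM at 0 h and 5.56 to 6.83 CPM at 12 h, after 19.8 to 39.3 CPM at 5 h (12 h against 5 h, log2 -2.29, adjusted p = 1.88e-07). LAIR1, an inhibitory collagen receptor, went the other way, from 186, 178 and 199 CPM to 61.5, 57.0 and 48.4 (log2 -1.76 ± 0.10). UBASH3A, a phosphatase-like suppressor, fell from 77.9, 71.9 and 75.8 CPM to 33.2, 32.6 and 28.7.

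Of 27 AP-1, NFAT and EGR factors, 17 were higher and 2 lower than at 0 h (median log2 0.77), while 16 were lower and 0 higher than at 5 h. The list also takes in nuclear receptor genes of the NR4A family. NR4A3, an orphan nuclear receptor, had 1.02, 1.20 and 1.34 CPM at 0 h, 640.4, 623 and 642 at 5 h and 53.9, 51.8 and 51.5 at 12 h (12 h against 5 h, log2 -3.60, adjusted p = 9.85e-17). FOSL2, an AP-1 subunit, fell below its starting level, from 9.93 ± 2.93 to 5.63 ± 0.453 CPM (SD, n = 3 each) after 32.6 to 37.6 CPM at 5 h. NFATC1, the inducible NFAT factor, had 47.2, 38.1 and 38.7 CPM at 0 h, 108, 119 and 113 at 5 h, and 46.1, 49.6 and 45.6 at 12 h. Its 12 h level did not pass the test against 0 h (adjusted p = 0.137) and was lower than at 5 h (log2 -1.26). JUN also did not pass it, with 10.6, 9.42 and 11.5 CPM before and 6.34, 9.92 and 9.77 after.

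In the list of MAP kinase phosphatases and SOCS proteins, which switch off MAP kinases and cytokine receptors, 11 of 19 were higher and 5 lower than at 0 h, and 9 were lower than at 5 h. DUSP2 had 25.2, 30.9 and 32.0 CPM at 0 h, 1151, 1295 and 1222 at 5 h and 295, 336 and 318 at 12 h (log2 3.43 ± 0.11 against 0 h, adjusted p = 9.69e-16). DUSP4 had under 0.6 CPM in each 0 h library and 33.9, 44.5 and 44.4 CPM at 12 h (log2 6.37, on 11 counts at 0 h). DUSP5 went from 2.07 to 3.29 CPM at 0 h to 58.9 to 67.8 CPM at 12 h. DUSP6, a phosphatase specific for ERK, had 7.03, 5.38 and 4.27 CPM at 0 h and 12.0, 8.50 and 9.48 at 12 h (log2 0.81), and did not pass the test against 5 h. DUSP1 was among the 5 that fell, from 12.8, 14.5 and 13.1 CPM to 5.12, 5.78 and 6.81, and so were CISH and SOCS2, feedback inhibitors of cytokine signalling with under 7 CPM at 0 h. These families therefore held members on both sides of 0 h.

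NF-κB subunits, inhibitors and targets formed the list with the largest share higher among the signalling lists, 21 of 26 (80.8%) with 1 lower and a median log2 of 1.03, and 17 of the 26 were lower than at 5 h. RELB, a subunit of the non-canonical pathway, rose from 2.56, 0.897 and 2.81 CPM to 49.1, 62.6 and 58.8 (log2 4.73 ± 0.21, adjusted p = 1.82e-13). Its partner gene NFKB2 rose from 22.4, 22.0 and 20.4 CPM to 122, 152 and 132. NFKBIA, the inhibitor that retains NF-κB in the cytoplasm (chromosome 14, 35401511 to 35404749), had 22.8, 21.1 and 20.5 CPM at 0 h, 166, 159 and 159 at 5 h and 50.3, 61.1 and 59.7 at 12 h. TNFAIP3, the ubiquitin-editing inhibitor A20, stayed closer to its 5 h level, with 108, 115 and 117 CPM, then 851, 784 and 813, then 572, 615 and 599. BIRC3, an inhibitor of apoptosis, had 34.4, 36.0 and 29.8 CPM at 0 h and 349.9, 296 and 354 at 12 h. BCL2A1, a survival gene of the BCL2 family, went from 0.122 to 0.639 CPM to 44.9 to 51.1 CPM (log2 6.73 ± 0.27, on 10 counts at 0 h). TRAF3, which restrains the non-canonical pathway, was the member that fell, from 116, 119 and 106 CPM to 97.9, 88.8 and 91.1 (log2 -0.30 ± 0.09, adjusted p = 0.00751).

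The promoters of this list are shown because they carry a motif more often than promoters at large. The letters GGNNTTTCC of the κB element were searched on both strands in the RefSeq promoter windows of 9775 tested genes (GRCh38.p14, 250 bases before to 50 after the annotated start). They matched 10 of the 23 NF-κB promoters given (43.5%), 6.7% of all promoters, 7.6% of those of genes called higher and 6.3% of those called lower. Each sequence is printed 5′ to 3′ on the gene's strand with the match in capitals, and a match is a description of letters, not of binding. NFKBIA is at chr14:35404973-35404999 (minus strand), BIRC3 at chr11:102317275-102317303 (plus), TRAF3 at chr14:102777407-102777435 (plus) and TAP1 at chr6:32853757-32853785 (minus). The TRAF3 window shows the same letters in the promoter of the member that fell, and TAP1 belongs to the antigen presentation genes described further on.
NFKBIA: ggtcggaaGGACTTTCCagccactcgg
BIRC3: tttgggtcatGGAAATCCCcgagtgggtt
TRAF3: gggcgcgccgGGGATTTCCagcgcgcgag
TAP1: cctgttcctgGGACTTTCCgagagccccg

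Many cytokine genes were lower at 12 h than at 5 h. Of 25 tested cytokine and chemokine genes, 13 were higher and 5 lower than at 0 h, and 18 were lower and 4 higher than at 5 h. Of 24 cytokine receptors, 11 were higher and 5 lower than at 0 h, and 5 were lower and 3 higher than at 5 h. IL2, the T-cell growth factor, had 0.00, 0.149 and 0.122 CPM at 0 h and 301, 253 and 226 CPM at 5 h. At 12 h it had 15.4, 15.6 and 14.2 CPM, lower than at 5 h (log2 -4.11, adjusted p = 3.17e-15). That level was still higher than at 0 h (log2 7.15 ± 0.38, on 2 counts at 0 h, edgeR adjusted p = 3.99e-12). Of its receptor, IL2RA had 346, 331 and 339.7 CPM at 5 h and 281, 329 and 272 at 12 h, a difference that did not pass the test (adjusted p = 0.0923). No IL2RA count was seen at 0 h, and the 12 h mean was at least 2226-fold above the floor of 3 counts over that group. IL2RG, the shared gamma chain, rose from 612, 672 and 728 CPM to 1460.3, 1252 and 1059. IL2RB, the beta chain, was low and went the other way, from 3.84, 5.23 and 7.56 CPM to 2.93, 4.14 and 2.67 (log2 -0.73 ± 0.30, adjusted p = 0.0458). It was also lower than at 5 h (log2 -1.42). Its call against 0 h was lost with DESeq2 and without 0 h replicate 2 or 3 or 12 h replicate 1 or 3. IL21R rose from 7.42, 4.93 and 6.47 CPM to 323, 349 and 275 (log2 5.64 ± 0.14, adjusted p = 2.35e-17). IL4R rose from 28.5, 29.7 and 32.0 CPM to 182, 194 and 165. IL7R, the receptor of a homeostatic cytokine, rose less, from 20.7, 18.4 and 21.3 CPM to 43.2, 39.4 and 37.2. IL17RA fell from 237 ± 18.3 to 88.9 ± 7.37 CPM (SD, n = 3 each), and the cytokine genes IL32 and TGFB1 fell as well (log2 -0.71 and -0.69). In the limma test on the deposited log2 values, which list only genes counted in every library, 4 cytokine genes in place of 13 were called higher.

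The TNF family had 14 of 22 members higher and 3 lower (median log2 1.00), and without 0 h replicate 2 only 1 was called lower. CD27, a costimulatory receptor (chromosome 12, 6444867 to 6451718), was still climbing between the times: it had 4.99, 7.03 and 8.90 CPM at 0 h, 78.5, 105 and 96.7 at 5 h and 167, 192 and 159.6 at 12 h (12 h against 5 h, log2 0.89, adjusted p = 1.01e-05). TNFRSF4, which encodes OX40, went from 1.20 to 2.43 CPM at 0 h to 44.7, 53.3 and 48.4 CPM at 12 h. TNFRSF1B, the second TNF receptor, went from 0.897 to 2.44 CPM to 61.7, 72.6 and 57.0. CD40LG, the ligand that T cells present to B cells, rose from 26.8, 27.4 and 32.4 CPM to 105, 87.1 and 86.9. For all 4 genes, every 12 h library lay above every 0 h library, as for 28.2% of all tested genes.

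Genes of homing and adhesion split: 19 of 40 rose and 12 fell. S1PR1, the receptor for exit from lymph nodes (chromosome 1, 101236865 to 101243713), fell from 62.9, 64.1 and 75.3 CPM to 37.6, 33.0 and 28.7 (log2 -1.04 ± 0.12, adjusted p = 4.54e-07), with every 12 h library below every 0 h library. CXCR4 fell from 773, 850.4 and 898 to 539, 423 and 371 CPM, and SELPLG, a ligand of selectins, from 219, 231 and 274 to 73.0, 75.2 and 61.9 CPM. The integrin subunit gene ITGA4 fell from 1593, 1629.7 and 1671 CPM to 1176, 867 and 882. Integrins moved both ways, since ITGAE, the CD103 subunit of tissue-resident cells, rose from 18.0, 19.7 and 15.9 CPM to 66.9, 63.9 and 53.2. CD44, a hyaluronan receptor of activated cells, went from 0.128 to 0.366 CPM to 10.0 to 11.5 CPM (log2 5.24 ± 0.34, on 6 counts at 0 h).

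Of the 22 cytotoxic and death-ligand genes, 14 rose and 5 fell. EOMES and TBX21, related T-box factors of effector cells, had different levels at 12 h. EOMES had 6.65, 7.03 and 6.95 CPM at 0 h, 132, 122 and 124 at 5 h and 138, 117 and 124 at 12 h. TBX21 had 0.366 to 1.15 CPM at 0 h, 24.5, 28.5 and 26.5 at 5 h and 1.22, 3.16 and 2.96 at 12 h (12 h against 5 h, log2 -3.31, adjusted p = 1.71e-09). PRF1, which encodes the pore protein perforin, fell from 8.05, 8.82 and 10.4 CPM to 2.20, 1.42 and 0.444 (log2 -2.83 ± 0.36). SRGN, the proteoglycan core of granules, rose from 14.6, 19.4 and 21.2 CPM to 84.9, 82.3 and 66.5. CRTAM, an adhesion receptor of cytotoxic cells, went from 0.897 to 1.59 CPM to 50.3 to 62.6 CPM.

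Antigen presentation genes were higher at 12 h, some of them above 5 h. Of 26 tested members of class I presentation and class II, 15 were higher and 4 lower than at 0 h (median log2 0.64), and 11 were higher and 3 lower than at 5 h. HLA-B, a class I heavy chain, had 387, 399 and 488 CPM at 0 h, 901, 1106 and 1036 at 5 h and 1495, 1528 and 1242 at 12 h (log2 1.74 ± 0.11 against 0 h, adjusted p = 8.48e-11, and log2 0.49 against 5 h, adjusted p = 0.00167). B2M, the light chain, rose from 1732, 1992 and 2242 CPM to 3696, 3484 and 3488. TAP1, a subunit of the peptide transporter, rose from 100.2, 104 and 112 CPM to 413, 398 and 313, and did not pass the test against 5 h (adjusted p = 0.341). Reads of class I genes are shared between near-identical copies, so their split is uncertain. The 4 members that fell were all CD1 genes, which present lipids: CD1A fell from 136, 152 and 146 CPM to 87.1, 78.4 and 71.1, and CD1B, CD1D and CD1E by 0.68, 0.38 and 0.34 on the log2 scale.

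Interferon-stimulated genes had 24 of 41 members higher and 5 lower, or 3 lower without 12 h replicate 3. GBP2, a guanylate-binding GTPase, had 1.53, 0.448 and 0.976 CPM at 0 h and 83.2, 92.7 and 99.9 at 12 h (log2 6.49 ± 0.20, on 23 counts at 0 h, adjusted p = 3.34e-16), and did not pass the test against 5 h (adjusted p = 0.196). Its relative GBP5 went from 1.53 to 2.07 CPM to 33.7 to 36.0 CPM. RSAD2, an antiviral enzyme, fell from 16.4, 15.4 and 15.5 CPM to 8.30, 7.20 and 4.89, and IFITM1 from 54.8, 51.9 and 68.1 to 35.4, 39.5 and 39.1 CPM. The list was therefore not uniform, and IRF1 had 194, 184 and 193 CPM at 0 h and 190.3, 218 and 222 CPM at 12 h after 401 to 444 CPM at 5 h.

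**Figure D2:**
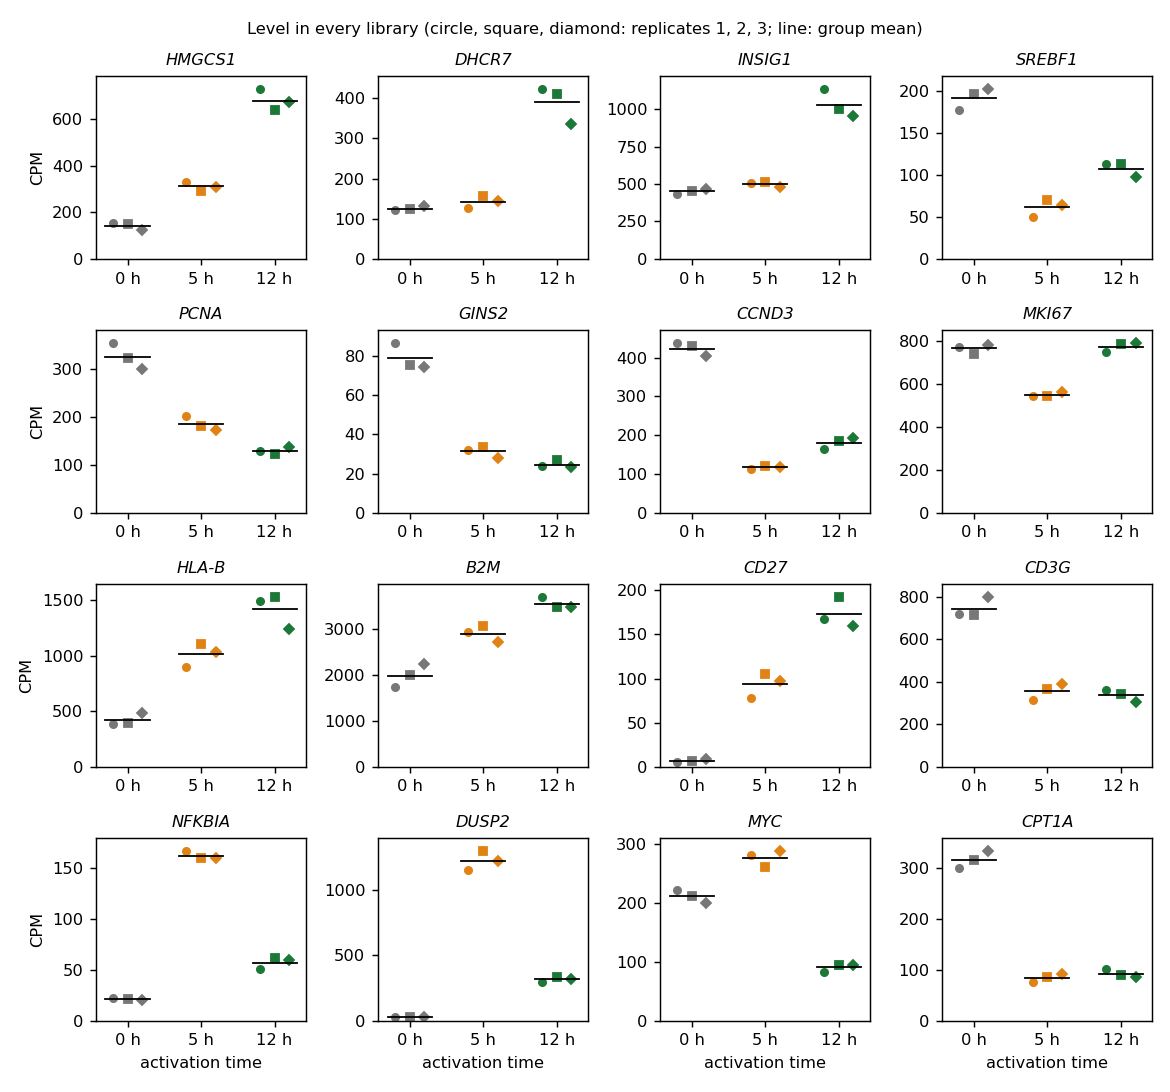
CPM of 16 genes in every library at 0 h (grey), 5 h (orange) and 12 h (green), on linear axes from 0, with circles, squares and diamonds for replicates 1, 2 and 3 and a line at each group mean. HLA-B and CD27 were higher at 12 h than at 5 h, NFKBIA, DUSP2 and MYC lower, and MKI67 at 12 h was back at 745 to 787 CPM against 739.8 to 780.2 CPM at 0 h.

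Genes of DNA replication were lower at 12 h almost throughout. Of 54 tested members, 47 fell and 2 rose (median log2 -0.79), and 26 were lower and 2 higher than at 5 h. The 12 h libraries all lay below the 0 h libraries for 51 of the 54, against 28.0% of all tested genes. GINS2, a subunit of the replicative helicase (chromosome 16, 85676198 to 85690073), had 86.4, 75.3 and 74.4 CPM at 0 h and 23.9, 26.7 and 23.2 at 12 h (log2 -1.67 ± 0.11, adjusted p = 2.32e-10). PCNA, the sliding clamp of DNA polymerases, fell in steps, from 353, 322 and 299 CPM to 202, 180.3 and 172 at 5 h and 129, 123 and 137 at 12 h (12 h against 5 h, log2 -0.51, adjusted p = 2.92e-04). Enzymes that supply nucleotides fell too: RRM2, a subunit of ribonucleotide reductase, fell from 412, 396 and 379.7 CPM to 159, 149 and 172, and TYMS from 557, 542 and 519 to 241, 245 and 281. MCM4 and MCM2, helicase subunits, fell by 1.36 and 0.94 on the log2 scale. UHRF1, which couples replication to DNA methylation, fell from 433, 351 and 393 CPM to 126, 161 and 174, and its level at 12 h did not pass the test against 5 h (adjusted p = 0.146). The members that rose were ORC2, an origin-binding subunit, from 67.6, 68.2 and 71.6 to 87.4, 80.3 and 89.1 CPM, and DBF4, an activator of origin firing, with a log2 change of 0.33 (adjusted p = 0.0189). The call of DBF4 was lost without 0 h replicate 2, 0 h replicate 3 or 12 h replicate 3 (adjusted p = 0.0733, 0.0841 and 0.145) and under upper-quartile normalization (adjusted p = 0.0537).

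E2F factors control many replication genes, so the letters TTTNGCGC and TTTCCCGC were searched on both strands of the same promoter windows. They matched 23 of 47 replication promoters (48.9%), against 5.7% of all promoters, 4.6% of promoters of genes called higher and 7.1% of those called lower. The windows are printed for 3 members that fell, in the manner described above. PCNA is at chr20:5126664-5126691 (minus strand), TYMS at chr18:657604-657631 (plus) and UHRF1 at chr19:4909477-4909500 (plus). All carry the second motif in its opposite orientation.
PCNA: agcgtcagggGCGGGAAAaggcgtgcgt
TYMS: cgggacggccGCGGGAAAaggcgcgcgg
UHRF1: ccgagttttcGCGGGAAAaaaatc

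Regulators of the G1 phase were lower too, 19 of 35 with 7 higher (median log2 -0.41). CCND3, the D-type cyclin that partners CDK6 (chromosome 6, 41934933 to 42050357), fell from 437, 429 and 404 CPM to 165, 184 and 193 (log2 -1.23 ± 0.09, adjusted p = 3.31e-10). CDK6 fell from 1448, 1438 and 1207 CPM to 823, 683 and 830.2. CCNE2, an E-type cyclin needed for entry into S phase, fell from 48.7, 42.8 and 42.9 CPM to 13.4, 11.3 and 13.5, and CCNE1 by 1.66 on the log2 scale. The inhibitors of CDKs differed from each other. CDKN1B, which encodes p27, rose late, with 66.2, 66.2 and 60.6 CPM at 0 h, 47.1, 59.1 and 53.7 at 5 h and 89.8, 96.3 and 113 at 12 h (12 h against 5 h, log2 0.90, adjusted p = 2.22e-06). CDKN2D, an INK4 inhibitor, fell from 41.4, 36.9 and 31.0 CPM to 6.83, 9.70 and 9.18. MYC, a driver of growth and proliferation, was above 0 h at 5 h and below it at 12 h: 222, 212 and 200.2 CPM, then 280.3, 261 and 287, then 82.2, 94.4 and 94.3 (12 h against 5 h, log2 -1.60, adjusted p = 5.31e-11). Its antagonist gene MXD1 rose from 10.1 ± 1.72 to 16.7 ± 1.35 CPM (SD, n = 3 each), and their shared partner MAX from 131, 114 and 117 to 197, 190.3 and 179.6.

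Of 57 mitosis and kinetochore members, 21 fell and 13 rose against 0 h, with a median log2 of -0.02, and 33 were higher and 4 lower than at 5 h (median log2 0.39). Without 0 h replicate 3, without 12 h replicate 3 or under upper-quartile normalization, 8 in place of 13 were called higher than at 0 h. MKI67, a proliferation marker, had 770.4, 739.8 and 780.2 CPM at 0 h, 543, 543 and 561 at 5 h and 745, 783 and 787 at 12 h (12 h against 5 h, log2 0.49, adjusted p = 1.06e-04). PLK1, a mitotic kinase, had 79.8, 75.2 and 70.9 CPM, then 46.9 to 48.3, then 64.2, 78.6 and 78.6. BUB1B, a checkpoint kinase, ended above its start, at 209, 177 and 192 CPM against 133, 131 and 121. MYBL2, a transcription factor of dividing cells, ended below it, at 90.8, 102 and 89.7 CPM against 181, 168 and 180.0. Of 20 tubulin genes, 10 were lower and 3 higher, in a list that also takes in gamma-tubulin complex genes. TUBA1B fell from 2229.5, 2199 and 2055 CPM to 991, 1033 and 1139, TUBB from 2959, 2687 and 2502 to 1646, 1828 and 1987, and the microtubule destabiliser STMN1 from 1168, 1027 and 1053 to 543, 623 and 723.

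**Figure D3:**
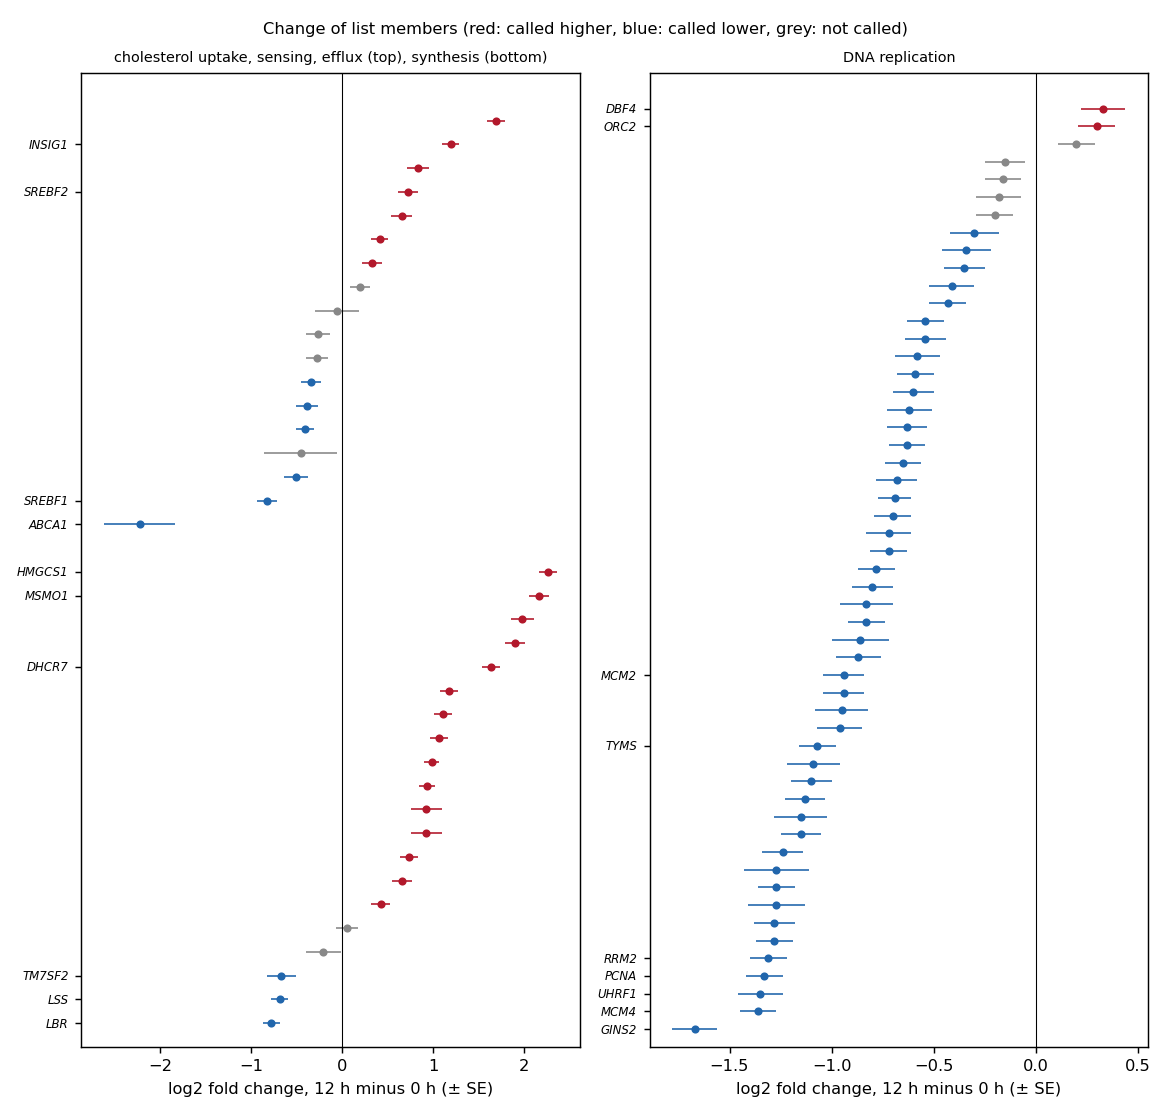
Log2 fold change of 12 h over 0 h with its standard error for members of the cholesterol lists (left, 18 genes of uptake, sensing and efflux above 20 of synthesis) and of DNA replication (right, 53 genes), with gene symbols for those described in the text, in red where called higher, blue where called lower and grey where not called. HMGCS1 lies at 2.26 and LBR at -0.78 among synthesis genes, and GINS2 at -1.67 marks the lower end of DNA replication.

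Sterol synthesis was a late change. Of 22 cholesterol synthesis genes, 16 were higher and 3 lower than at 0 h (median log2 0.92), and 19 were higher and 1 lower than at 5 h (median log2 0.97). The summed level of the list was 2678 to 2765 CPM at 0 h, 2755 to 2858 CPM at 5 h and 4793 to 5676 CPM at 12 h. HMGCS1, an early enzyme of the pathway (chromosome 5, 43289395 to 43313512), had 153, 149 and 125 CPM at 0 h, 332, 292 and 309.9 at 5 h and 728, 638 and 673 at 12 h (log2 2.26 ± 0.10 against 0 h, adjusted p = 1.35e-13). MSMO1, a sterol demethylase, rose from 57.3, 54.9 and 56.6 CPM to 302, 232 and 223, and DHCR7, which completes cholesterol, from 121, 123 and 131 to 422, 409.5 and 337. DHCR7 had 126, 156 and 143 CPM at 5 h, and its 12 h level was higher than that (log2 1.45, adjusted p = 1.66e-09). LSS, which closes the sterol rings, did not follow: it fell from 92.2, 102 and 104 CPM to 61.7, 64.4 and 58.3. LBR and TM7SF2, which encode the sterol reductases of the step after ring demethylation, fell by 0.78 and 0.67 on the log2 scale.

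The genes of cholesterol uptake, sensing and efflux gave 8 higher and 6 lower of 19. INSIG1, the sterol-regulated anchor of the SREBP pathway, had 433, 452 and 468 CPM at 0 h, 504, 515 and 482 at 5 h and 1132, 1000.0 and 955 at 12 h (log2 1.19 ± 0.09 against 0 h, adjusted p = 8.26e-10). The 2 SREBP genes moved apart. SREBF2, whose product drives sterol genes, rose from 215, 242 and 261 CPM to 419, 437 and 330.1 (log2 0.72 ± 0.11). SREBF1, whose product drives fatty acid genes, fell from 177, 196 and 202 CPM to 113, 113 and 97.1, although it was higher than at 5 h, when it had 50.4, 70.3 and 64.5 CPM (log2 0.80, adjusted p = 1.80e-05). ABCA1, a cholesterol exporter, fell from 6.26, 7.03 and 5.73 CPM to 0.732, 1.53 and 1.48 (log2 -2.23 ± 0.39). The letters TCACNCCAC, a form of the sterol regulatory element, matched 0 of 17 cholesterol synthesis promoters given and 1.1% of all promoters. They matched 1 of 17 promoters of uptake, sensing and efflux genes (5.9%). Other forms of the element were not searched, so a promoter without a match may hold one. The window of SREBF2, chr22:41832962-41832990 (plus strand), which rose, is shown because it holds the match of its list.
SREBF2: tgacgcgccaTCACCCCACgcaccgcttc

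Fatty acid genes gave 10 higher and 7 lower of 26 against 0 h, and 10 higher and 2 lower against 5 h. SCD, the stearoyl-CoA desaturase, dipped and then rose, with 1217, 1194 and 1302 CPM at 0 h, 812, 892 and 871 at 5 h and 1979, 1696 and 1517 at 12 h (log2 0.48 ± 0.10 against 0 h, adjusted p = 3.57e-04). FASN, the fatty acid synthase, had 255, 260.1 and 268 CPM at 0 h and 273, 321 and 274 at 12 h, which did not pass the test, and was higher than at 5 h (log2 0.55). CPT1A, which admits fatty acids to mitochondria for oxidation (chromosome 11, 68754620 to 68844410), fell from 299, 314 and 332 CPM to 101, 90.3 and 85.3 (log2 -1.78 ± 0.09, adjusted p = 4.03e-12). ACSL1, which activates fatty acids, rose from 14.4, 17.6 and 20.5 CPM to 47.6, 45.3 and 43.5.

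Glycolysis genes were divided, with 9 of 28 higher and 11 lower, or 7 lower without 0 h replicate 1. PKM, the pyruvate kinase, rose from 964, 823 and 858 CPM to 1663, 2045 and 2098 (log2 1.14 ± 0.10, adjusted p = 1.10e-08). LDHA, which makes lactate, fell from 901, 802 and 773 CPM to 441, 440.0 and 496. Glucose transporters parted: SLC2A1 fell from 108, 118 and 128 CPM to 44.9, 41.7 and 31.2, and SLC2A3 rose from 62.3, 62.0 and 65.4 to 106, 83.0 and 72.7. The lactate transporter gene SLC16A1 fell from 309.8, 297 and 320.3 CPM to 238, 185 and 165. TXNIP, an inhibitor of glucose uptake, went from 2.68 to 4.78 CPM at 0 h to 0.00 to 0.732 CPM at 12 h.

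Amino-acid transport and ATF4 target genes had 16 of 29 members higher and 4 lower. SLC3A2, the shared heavy chain of several amino-acid transporters, rose from 188, 200.0 and 225 CPM to 641, 625 and 477 (log2 1.51 ± 0.11, adjusted p = 5.67e-10). ASNS, the asparagine synthetase, rose from 32.2, 42.5 and 43.7 CPM to 95.4, 76.5 and 84.3. ATF4 itself rose less, from 242, 234 and 248 to 305, 359 and 344 CPM. SLC1A4, a neutral amino-acid transporter, fell from 130.3, 125 and 138 CPM to 41.2, 39.1 and 34.4, and SLC1A5 from 246, 249 and 290.2 to 209, 209 and 177. Of 20 aminoacyl-tRNA synthetases, which charge tRNAs, 10 rose and 1 fell. WARS1 rose from 59.6, 60.1 and 57.6 CPM to 113, 127 and 128, and AARS1 from 96.5, 91.5 and 91.1 to 152, 160.0 and 149.9. The letters TGATGCAA of the amino-acid response element, searched on both strands, matched 6 of 16 synthetase promoters (37.5%), 1 of 24 promoters of amino-acid transport and ATF4 target genes (4.2%) and 0.5% of all promoters. They matched 0.7% of promoters of genes called higher and 0.5% of those called lower. The window of AARS1 at chr16:70289676-70289703 (minus strand) shows the match in its opposite orientation.
AARS1: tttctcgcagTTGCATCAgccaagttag

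In the endoplasmic reticulum, 9 of 34 genes of the unfolded protein response and folding were higher and 9 lower than at 0 h, and 14 were lower and 2 higher than at 5 h. HSPA5, the main chaperone BiP, had 593, 565 and 675 CPM at 0 h, 1838, 1945 and 2016 at 5 h and 648, 560.0 and 464 at 12 h (12 h against 5 h, log2 -1.80, adjusted p = 2.36e-10). Its 12 h level did not pass the test against 0 h (adjusted p = 0.313). HSP90B1, which encodes GRP94, remained higher than at 0 h, with 762, 697 and 822 CPM, then 2624 to 2826, then 1855, 1617 and 1432. CALR and XBP1, a lectin chaperone and a transcription factor of this response, fell from 1516, 1372 and 1725 to 881, 970.1 and 778 CPM and from 214, 218 and 250.3 to 133, 113 and 104 CPM. ERN1, the sensor that splices XBP1 mRNA, rose from 46.4, 44.5 and 53.9 CPM to 146, 126 and 106.

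**Figure D4:**
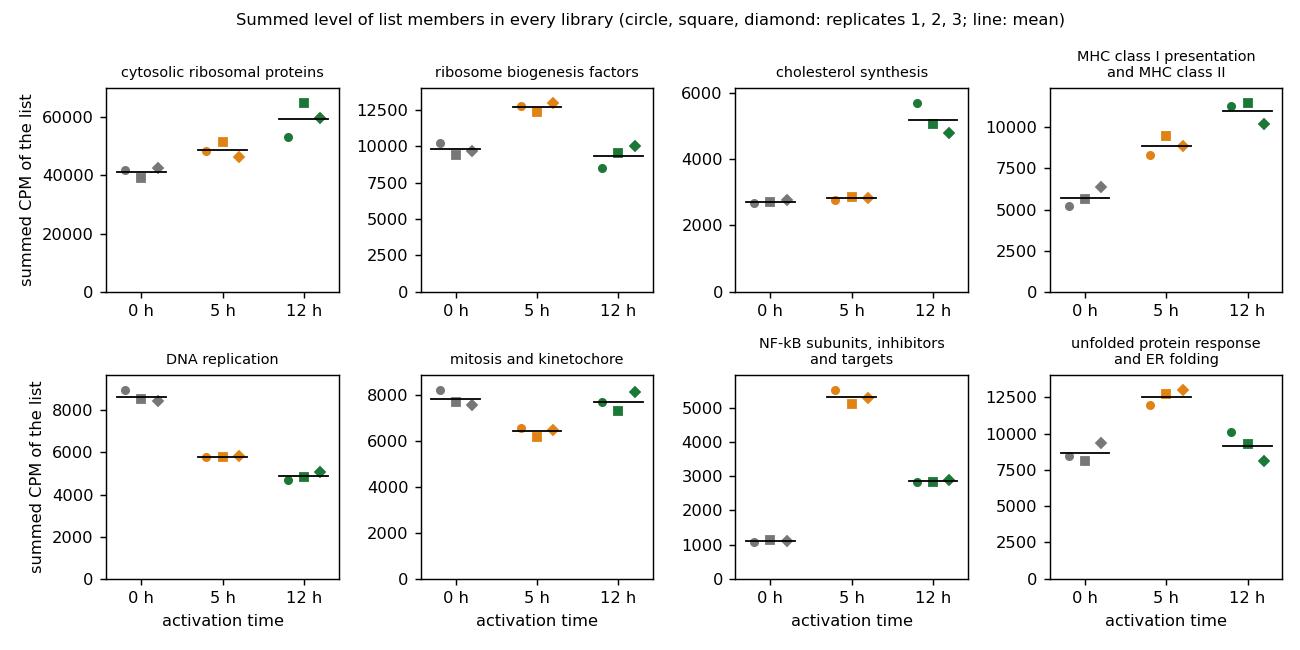
Summed CPM of 8 gene lists in every library at 0 h (grey), 5 h (orange) and 12 h (green), on linear axes from 0, with circles, squares and diamonds for replicates 1, 2 and 3 and a line at each group mean. Cholesterol synthesis summed to 4793 to 5676 CPM at 12 h against 2755 to 2858 CPM at 5 h, and ribosome biogenesis factors to 8537 to 10058 CPM at 12 h against 12340 to 12960 CPM at 5 h.

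Ribosomal protein genes were higher at 12 h than at 0 h nearly throughout. Of 83 cytosolic ribosomal protein genes, 79 were higher and 2 lower than at 0 h (median log2 0.51), and 49 were higher and 1 lower than at 5 h. The changes were small: RPL3, a large-subunit protein (chromosome 22, 39312882 to 39320389), rose from 664, 629.6 and 681 CPM to 975, 1289.6 and 1133 (log2 0.78 ± 0.10, adjusted p = 1.49e-06). RPL12 rose from 331, 296 and 315 CPM to 475, 623 and 589, and RPS28 from 164, 146 and 187 to 224, 306 and 279.9. The 2 that fell, RPL39L and RPS27L, are paralogues of the standard subunits: RPL39L had 19.6, 18.4 and 17.9 CPM before and 10.2, 15.2 and 13.2 after. RPS27L had 45.0, 33.0 and 41.6 CPM before and 28.6, 30.0 and 30.9 after, and its call was lost without 0 h replicate 1 (adjusted p = 0.0502). Under upper-quartile normalization 4 members in place of 2 were lower. The list summed to 39006 to 42705 CPM at 0 h and 53121 to 64724 CPM at 12 h, lowest in 12 h replicate 1. Ribosomal protein genes have many near-identical pseudogene copies, so their counts are uncertain.

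Factors that build ribosomes were mostly below their 5 h level. Of 86 ribosome biogenesis factors, 19 were higher and 21 lower than at 0 h (median log2 -0.02), and 52 were lower and 3 higher than at 5 h (median log2 -0.46). The list summed to 9412 to 10262 CPM at 0 h, 12340 to 12960 CPM at 5 h and 8537 to 10058 CPM at 12 h. Some members did not follow this sum. NOP56, a core protein of the RNA-guided methylation complex (chromosome 20, 2652145 to 2658393), fell from 439, 475 and 543 CPM to 349, 388 and 375 at 5 h and 215, 266 and 236 at 12 h (log2 -1.02 ± 0.10 against 0 h, adjusted p = 4.17e-08). UBTF, an activator of ribosomal RNA transcription, fell from 299.7, 256 and 287 CPM to 107, 137 and 135. PPAN, a factor of the large subunit, remained higher than at 0 h, with 62.3, 60.2 and 69.5 CPM, then 145, 207 and 217, then 102, 154 and 152. DDX10, an RNA helicase, had 62.1, 52.3 and 56.4 CPM, then 133, 119 and 128, then 78.6, 88.6 and 94.9, and was lower at 12 h than at 5 h (log2 -0.53, adjusted p = 2.61e-04).

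Translation factors rose in 26 of 59 cases and fell in 11 (7 without 0 h replicate 2), in a list that also takes in the eIF2 kinases. PABPC1, the poly(A)-binding protein, rose from 1337, 1129 and 1101 CPM to 2097, 2108 and 2125, and EEF1A1, the elongation factor, from 6419, 6169 and 6131 to 9399, 9558 and 9121. Among initiation factors, EIF5 fell from 358, 356 and 322 to 242, 223 and 251 CPM and EIF1AX from 137, 116 and 108 to 62.0, 61.8 and 72.7 CPM, both also lower than at 5 h (log2 -0.95 and -0.79). Mitochondrial ribosomal proteins gave 10 higher and 19 lower of 78, and nuclear genes of oxidative phosphorylation 7 higher and 15 lower of 78. Both shares of genes called higher, 12.8% and 9.0%, were below the 26.3% of all tested genes, which was not tested. Under upper-quartile normalization 26 oxidative phosphorylation genes were lower, and without 12 h replicate 2 only 5 mitochondrial ribosomal genes were higher. NDUFS1, a subunit of complex I, fell from 163, 152 and 143 to 107, 99.1 and 109.

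Factors of the T lineage changed in both directions, 15 of 38 higher and 17 lower. NOTCH3, a receptor active in T-cell leukaemia, fell from 72.1, 78.5 and 89.2 CPM to 24.2, 26.5 and 22.2, and DTX1, a Notch target, from 228, 226 and 248 to 49.1, 71.7 and 65.0 (log2 -1.90 ± 0.11, adjusted p = 2.23e-11). RAG1 and RAG2, which recombine receptor genes in thymocytes, fell from 13.9 ± 2.29 to 4.65 ± 1.31 and from 5.61 ± 0.968 to 1.28 ± 0.555 CPM (SD, n = 3 each). BCL11B, a factor that keeps T-cell identity, fell from 384, 346 and 306 CPM to 126, 141 and 161, although it was higher than at 5 h, when it had 83.6, 95.3 and 99.0. TCF7 and TAL1 fell by 0.50 and 0.49 on the log2 scale. IKZF2, which encodes Helios, rose in steps, from 404, 385 and 335 CPM to 914, 802 and 885 and then 1162, 974 and 1199. RUNX3 rose from 19.3, 23.3 and 18.2 to 62.2, 74.5 and 64.1 CPM, after 123 to 142 CPM at 5 h.

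Among 27 quiescence factors, 7 rose and 7 fell. BCL6, a repressor of effector programmes (chromosome 3, 187721377 to 187745727), rose from 4.22, 2.99 and 3.17 CPM to 58.1, 72.3 and 70.6 (log2 4.27 ± 0.16, adjusted p = 6.46e-15), a level that did not pass the test against 5 h. BACH2, another repressor, had 50.5, 56.5 and 47.0 CPM at 0 h, 823, 725 and 771 at 5 h and 352, 318 and 321 at 12 h. KLF13 fell from 162, 151 and 151 CPM to 104, 120.3 and 101. In the BCL2 and caspase list, 10 of 30 rose and 6 fell. BCL2L11, which encodes the death-promoting protein BIM, rose from 55.2, 57.4 and 45.3 CPM to 281, 251 and 273, and BCL2L1, which encodes the survival protein BCL-XL, from 119, 108 and 107 to 235, 289 and 278. BID, a link from caspases to mitochondria, fell from 116, 111 and 126 CPM to 55.9, 52.0 and 54.0. Genes for and against cell death thus both rose.

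The series concerns miRNA repression, and of the genes of its machinery 9 of 27 were higher and 4 lower (median log2 0.02). DROSHA, DICER1 and AGO2, which cut miRNA precursors and carry the mature miRNA, did not pass the test against 0 h: AGO2 had 173, 171 and 169.6 CPM and then 198, 194 and 191 (adjusted p = 0.0743). The GW182 genes TNRC6B and TNRC6C, which link Argonaute to deadenylation, moved apart. TNRC6B (chromosome 22, 40044817 to 40335808) had 138, 152 and 151 CPM at 0 h, 163, 153 and 152 at 5 h and 326, 291 and 308 at 12 h (12 h against 5 h, log2 0.98, adjusted p = 3.70e-08). TNRC6C fell from 181, 166 and 152 CPM to 83.5, 99.6 and 101 (log2 -0.81 ± 0.10, adjusted p = 1.03e-06). DGCR8, the partner of DROSHA, fell from 108, 121 and 123 CPM to 71.3, 72.7 and 61.7. ADARB1, an RNA-editing enzyme, rose from 75.9, 75.5 and 76.0 CPM to 192, 225 and 206. In mRNA decay, 13 of 37 genes rose and 10 fell. ZFP36L1, which marks AU-rich mRNAs for decay, rose from 48.1, 37.8 and 35.4 CPM to 301, 312 and 355 (log2 3.00 ± 0.11), and its relative ZFP36L2 fell from 139, 118 and 127 to 55.9, 56.2 and 66.8. XRN1 and DCP2, an exonuclease and a decapping enzyme, rose from 70.1, 77.9 and 67.7 to 165, 143 and 151 CPM and from 150.5, 138 and 124 to 283, 215 and 282 CPM.

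Other lists are given by their counts. Of 27 p53 target genes, 10 were higher and 6 lower, or 3 lower without 0 h replicate 3 or without 12 h replicate 3. Of 28 cytosolic and mitochondrial chaperones, 11 were higher and 4 lower, with 7 higher without 0 h replicate 2 and 7 lower under upper-quartile normalization. Cytoskeletal genes of the actin, lamin and vimentin group gave 13 higher and 12 lower of 42, Rab GTPases of vesicle traffic 15 and 11 of 46, and proteasome subunits 7 and 6 of 38. Annexins and S100 proteins, which bind calcium, gave 1 higher and 5 lower of 10, with 2 higher without 0 h replicate 1 or without 12 h replicate 1. Lysosome and autophagy genes gave 7 higher and 10 lower of 40 against 0 h, and 11 higher and 1 lower against 5 h. Of 7 mitochondrially encoded genes 1 was higher, with 2 without 12 h replicate 2 and 0 in the limma test. Of 6 tested replication-dependent histone genes, whose mRNAs mostly lack a poly(A) tail, 1 was higher and 2 lower. Only 1 was lower without 0 h replicate 1, 0 h replicate 3 or any 12 h replicate.

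Other genes were named for their loss or gain of mean CPM or their fold change. ATP2A3, a calcium pump of the endoplasmic reticulum (chromosome 17, 3923870 to 3964464), fell from 1169.7, 1216 and 1429.5 CPM to 354, 372 and 294 (log2 -1.90 ± 0.12, adjusted p = 5.25e-11). ATP2B4, a calcium pump of the plasma membrane, fell from 1111, 1139 and 1188 CPM to 652, 562 and 481. ADA, adenosine deaminase (chromosome 20, 44619522 to 44652233), fell from 914, 876 and 895 CPM to 189, 216 and 207 and was lower than at 5 h (log2 -0.52). Among genes with at least 20 CPM at 0 h, MYO7B, an unconventional myosin, fell from 511, 557 and 580.4 CPM to 75.2, 82.8 and 74.8 (log2 -2.82 ± 0.11), and PMEPA1, an inhibitor of TGF-beta signalling, from 320.1, 322 and 320.3 to 34.7, 45.0 and 38.5. LYST, a regulator of lysosomes (chromosome 1, 235661041 to 235883640), rose from 23.7, 17.8 and 22.8 CPM to 285, 226 and 249 (log2 3.55 ± 0.12), and PDE4DIP from 59.3, 65.5 and 61.1 to 389, 407 and 381.

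The next genes were chosen for their change between 5 h and 12 h. ADRB1, the beta-1 adrenergic receptor (chromosome 10, 114044056 to 114046908), had 5.50, 5.53 and 5.61 CPM at 0 h, 4.36, 6.08 and 5.95 at 5 h and 20.6 ± 2.06 (SD, n = 3) at 12 h (12 h against 5 h, log2 1.92, adjusted p = 8.62e-08). PGPEP1, a peptidase, had 49.6, 57.1 and 49.3 CPM, then 41.3, 40.7 and 35.6, then 104, 122 and 105. TP53INP1, a p53 target of stress and autophagy, rose in steps from 12.8, 18.1 and 14.6 CPM to 37.6, 30.3 and 36.3 and then 91.3, 71.0 and 74.5. In the other direction, PER2, a repressor of the circadian clock (chromosome 2, 238244038 to 238290102), had 49.1, 43.9 and 44.3 CPM at 0 h, 64.4, 68.7 and 71.3 at 5 h and 20.5, 21.5 and 22.2 at 12 h (12 h against 5 h, log2 -1.66, adjusted p = 5.42e-10). ZNF587B, a zinc-finger gene, had 40.1, 44.5 and 40.1 CPM, then 50.4, 38.2 and 37.1, then 14.4, 12.3 and 11.7. The ZNF genes as a whole stayed near the background, with 90 of 407 higher and 77 lower than at 0 h.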

How the data were processed

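Messenger RNA was sequenced in 9 libraries of Jurkat Clone E6-1 cells, 3 each at 0 h, 5 h and 12 h. The deposited whole-number counts per gene show no normalization by the authors. The submitters' processing notes name cutadapt, RSEM, DESeq2 and GRCh38.p13, without roles or versions. RSEM estimates counts, so these may be rounded estimates. Not given in the sources used here were aligner, annotation and strand setting, so reads of overlapping or antisense genes cannot be told apart. The deposited log2 values equal log2 of the count over a factor per library, plus 1, for the 12692 genes counted in all libraries, and served only in an alternative.

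Tests of counts used edgeR 4.0.16 (R 4.3.3): all 9 libraries in 1 quasi-likelihood fit, TMM normalization, the filterByExpr filter, Benjamini-Hochberg adjustment over 12036 genes and calls at an adjusted p under 0.05. The fit was also run on simulated counts. Few genes were changed in them, against 51.1% called here, so that run does not show the error rate in these data. CPM use TMM-scaled totals, and standard errors are on the log2 scale. For IL2RA the bound uses a floor of 3 counts over the 0 h group (0.132 CPM), which covers counting error only. Replicates of a group differed by more than sampling noise (chi-square over degrees of freedom 2.96 to 9.43), a spread that may be technical. Each library counted as 1 replicate, as labelled. Coordinates are from GENCODE 29 (GRCh38), 1-based, matched for 19500 genes. Promoter windows were from RefSeq.

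The genes, 48 lists, motifs and tests were chosen with earlier results of these data known, so list counts are descriptions. Named genes were each list's key genes and its 4 largest called changes per direction at 5 CPM or more, the 8 largest gains and losses of mean CPM, the 8 largest changes per direction at 20 CPM or more at 0 h with groups that do not overlap, and the 6 largest per direction between 5 h and 12 h at 10 CPM or more among genes called the same way against 0 h and 5 h. Genes of the Y chromosome were never named. Alternatives were other normalizations, no filter, DESeq2 1.42.0, limma 3.58.1, only the groups compared, a replicate block and leaving out each replicate. Some genes are not reported here.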

Additional observations from a re-analysis of the deposited data

How the results depend on the processing

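The counts of genes called kept their size, within 1.5 times of the values above, in every alternative run. Genes higher than at 0 h numbered 2975 and lower 2698 with DESeq2, and 2843 to 3056 and 2674 to 2960 when each 0 h or 12 h replicate was left out. At 2-fold or more, the ranges without a replicate were 687 to 746 higher and 697 to 790 lower. Against 5 h, leaving out a 5 h or 12 h replicate gave 1638 to 2216 higher and 1646 to 2176 lower. The same genes were called in the same direction in 86.4% of 6145 cases without 12 h replicate 2, the lowest share among the alternatives for 12 h against 0 h, and none was called the opposite way. Against 5 h that share was lowest at 71.3% of 4340. Upper-quartile normalization shifted the median of all genes by -0.066 on the log2 scale. Of 421 tested genes covered by the naming rule, 387 were called, and 19 of these lost their call in at least 1 alternative. Genes without a value in an alternative were not counted as lost there. Of 96 counts of list members called, 21 moved by more than 1.5 times in at least 1.

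Deviations of same-numbered 0 h and 12 h libraries from their group means correlated at -0.1, -0.123 and -0.143, against -0.06 to 0.187 for different numbers. Between 5 h and 12 h the values were 0.163, 0.107 and 0.012, against -0.2 to 0.118 for different numbers. With 3 libraries per group, such correlations cannot show whether libraries shared a culture or handling. With a replicate block, 3149 genes were higher and 3027 lower than at 0 h.

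The depth of 4222258 to 9359187 counts limits genes of low abundance, whose median standard error was 0.30 on the log2 scale. A gene not called there is not shown to be stable.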
